A study of Mus musculus with 4 samples.

Results

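The genes described here are 8 that encode secreted products and were grouped under early T cell activation: Il2, Il3, Csf2, Lif, Ifng, Il21, Il13 and Il4i1. The heading describes the choice of genes, and not all of these genes were higher after 3 h of culture on these arrays. They were taken by gene name from the array files, which hold 11 probes for them among 26580 named genes: Il2, Il3 and Il21 have 2 probes each, and the other genes have 1. Il4i1 is the exception in kind, since it encodes a secreted L-amino-acid oxidase and not a cytokine. The series held 4 Agilent arrays of 1 colour, a single array for every group: naive T cells of both genotypes, wild type (WT) and Nr4a triple knockout (Nr4a-TKO), and iTreg cells, cultured towards induced regulatory T cells, of both genotypes after 3 h. Naive T cells were CD4+, CD25low, CD44low, CD62L-high and Foxp3- cells sorted from spleen and lymph nodes of irradiated Rag2-/- recipients of bone marrow. The study's mice were C57BL/6J animals aged 6 to 8 weeks, and its methods list a Foxp3 hCD2-hCD52-KI reporter line without saying which of these samples carried it. Nr4a-TKO cells lacked Nr4a1, Nr4a2 and Nr4a3 by design (floxed Nr4a1 and Nr4a2 with a germline Nr4a3 deletion; the Cre driver is not given in the sources used here) and came from recipients of a mixture of WT and Nr4a-TKO marrow, while WT cells came from recipients of WT marrow, so genotype and kind of chimera cannot be told apart. The iTreg samples were the same naive cells after 3 h with plate-coated anti-CD3 at 2 µg/ml, anti-CD28 at 0.5 µg/ml, anti-IFN-γ and anti-IL-4 at 1 µg/ml each, IL-2 at 10 ng/ml and TGF-β1 at 0.2 or 0.5 ng/ml. The culture thus contained IL-2 protein and antibodies that bind IFN-γ and IL-4, which are no source of mouse transcripts but are part of both 3 h groups.

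In a resting CD4+ T cell cytokine loci are largely silent, though Il13 and Il4i1 were well above background on both naive arrays here. Engagement of the T cell receptor and CD28 raises calcium and kinase signals that bring NFAT, AP-1 and NF-κB to their promoters, and Il2 is the standard example of such a gene. IL-2 and IL-21 signal through receptors that share the common γ chain, IL-3 and GM-CSF (the product of Csf2) through the common β chain, LIF through gp130, IFN-γ through its own pair of chains and IL-13 through chains that include the IL-4 receptor. Nr4a1, Nr4a2 and Nr4a3 are nuclear receptors that are themselves induced within hours of T cell receptor signalling.

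Each value below comes from hybridisation to a probe of 60 bases. Of the 11 probes, 3 are shown as examples of a probe that was bright at 3 h (Il2), a probe dim on all arrays (Il3) and a probe detected on all arrays (Il13). Positions are on mm9, the build of the array files, and the letters run 5′ to 3′ in the sense of the transcript. Il2 probe 1 lies at chr3:37024765-37024824 on the minus strand and starts at base 52 of the transcript. Il3 probe 1 lies at chr11:54078997-54079056, and the Il13 probe at chr11:53445564-53445623, both on the minus strand.
Il2 probe 1: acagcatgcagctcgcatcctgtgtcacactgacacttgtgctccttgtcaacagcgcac
Il3 probe 1: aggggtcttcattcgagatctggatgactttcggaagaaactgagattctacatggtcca
Il13: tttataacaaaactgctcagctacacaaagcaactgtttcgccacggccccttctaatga

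Other probes are Il3 probe 2 (chr11:54078587-54078646), Csf2 (chr11:54060772-54060799, where the file's coordinates cover 28 bases of the probe), Lif (chr11:4172032-4172091), Ifng (chr10:117882841-117882900), Il21 probe 1 (chr3:37124300-37124359), Il21 probe 2 (chr3:37121681-37121740) and Il4i1 (chr7:52096115-52096174). Several members are neighbours. The probes of Il2 and Il21 lie 96.9 kb apart on chromosome 3, those of Csf2 and Il3 lie 17.8 kb apart on chromosome 11, and that of Il13 lies 615 kb from Csf2 on the same chromosome.

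Promoters are shown for the 4 cytokines whose signal separated the 3 h arrays on a probe of theirs and that were dim on at least 1 naive array. These are the 250 bases before the transcription start in RefSeq on GRCm38.p6, a different build from that of the probes. Capitals mark matches on either strand to the NFAT core GGAAA, the AP-1 site TGANTCA and the TATA box TATAAA.
Il2, chr3:37125955-37126204, minus strand: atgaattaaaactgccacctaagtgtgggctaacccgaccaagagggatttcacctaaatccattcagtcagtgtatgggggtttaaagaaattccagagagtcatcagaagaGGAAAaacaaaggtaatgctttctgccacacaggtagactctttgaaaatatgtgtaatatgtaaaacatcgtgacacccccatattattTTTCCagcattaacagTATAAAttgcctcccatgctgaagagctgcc
Il21, chr3:37232637-37232886, minus strand: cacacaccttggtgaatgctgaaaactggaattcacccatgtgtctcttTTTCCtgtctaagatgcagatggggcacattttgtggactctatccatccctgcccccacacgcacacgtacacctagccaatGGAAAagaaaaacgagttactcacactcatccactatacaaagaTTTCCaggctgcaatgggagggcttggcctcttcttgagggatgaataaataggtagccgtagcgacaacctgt
Lif, chr11:4257318-4257567, plus strand: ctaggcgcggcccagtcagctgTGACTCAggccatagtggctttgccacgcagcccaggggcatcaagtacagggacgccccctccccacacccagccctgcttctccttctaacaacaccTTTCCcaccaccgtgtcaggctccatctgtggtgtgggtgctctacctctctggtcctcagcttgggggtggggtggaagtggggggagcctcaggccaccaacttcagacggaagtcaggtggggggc
Ifng, chr10:118440796-118441045, plus strand: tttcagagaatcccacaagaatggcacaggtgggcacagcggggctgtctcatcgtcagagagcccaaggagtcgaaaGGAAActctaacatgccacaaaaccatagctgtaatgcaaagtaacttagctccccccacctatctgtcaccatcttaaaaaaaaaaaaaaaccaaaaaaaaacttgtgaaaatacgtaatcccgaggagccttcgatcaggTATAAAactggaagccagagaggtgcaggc

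All 8 members had a RefSeq promoter entry, and all 8 of these 250-base stretches held the NFAT core, which 55.6% of 32851 mouse promoters hold. Il13 held 4 matches, a number reached by 1.59% of promoters, and Il21 held 3, a number reached by 6.39%. The TATA box was found in 3 members, Il2, Ifng and Il13, against 12.4% of promoters, and the first base of the match nearest the start lay 31, 30 and 29 bases before it. The AP-1 letters were found in Lif alone, against 6.75% of promoters. The Ets motif AGGAAG, searched on both strands and able to overlap the NFAT core, was found in Il3 and Il4i1, against 29.5%. Neither AAAGGTCA, a form of the Nr4a motif, nor the E-box CACGTG was found in any of the 8 stretches. They are held by 1.34% and 6.02% of promoters. The study's Nr4a motif also allows a T in place of the first G, and that form was not searched. The letters are a description of these windows and not evidence of binding.

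The 4 arrays were on 1 slide, and no spot was saturated. Probes well above background made up between 64.9% and 67.6% of probes on each array. No group had a replicate, so no difference below has a test, and the only error measured is that between spots within an array: probes printed on at least 5 spots gave an SD of a log2 difference between 0.158 and 0.185, and between 0.255 and 0.279 for probes whose normalised log2 signal was under 5, a range that holds most of the dim members. Nr4a1 and Nr4a2 read higher on the array labelled Nr4a-TKO at 3 h, by 0.48 for Nr4a1 and by 1.37 and 1.38 for the probes of Nr4a2 on the log2 scale, and the 3 probes of Nr4a3 differed by -1.85, -1.46 and 0.19. In naive T, the array labelled Nr4a-TKO read higher by 1.33 for Nr4a1 and by 0.76 and 0.19 for Nr4a2, and the Nr4a3 probes differed by 0.08, -0.39 and 0.02. The position of these probes relative to the deleted exons was not examined, so the genotypes here are those given by the labels, and so are all directions between them. All 10 CD4 T cell markers were well above background on the 4 arrays. In bulk samples, more transcript per cell and more cells with the transcript cannot be told apart.

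The first question was which of these genes differed between naive T cells and cells after 3 h of culture. Il2 and Lif were the clearest: both were at or near background on the naive arrays and well above it on both 3 h arrays. A gene took the value of its brightest probe, a dim value took the lowest signal well above background on its array where it lay below that, and a difference that rests on such a value is given as a bound. In WT cells, 6 of the 8 members were well above background on at least 1 of both arrays. Of these, 3 (Il2, Lif and Il21) were more than 2-fold higher at 3 h, and 1 (Il4i1) was more than 2-fold lower, where 8.56% and 8.99% of 19257 genes measured were. In Nr4a-TKO cells, 7 members could be compared. Here 4 (Il2, Lif, Il4i1 and Ifng) were more than 2-fold higher and 0 were more than 2-fold lower, where 8.0% and 8.41% of 19650 genes were. The median log2 difference of the members was 0.58 in WT and 1.21 in Nr4a-TKO, beside -0.06 and -0.02 over all genes. A member dim in naive T could enter only by being higher at 3 h, so these counts and medians describe the members that passed and support nothing about all 8.

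**Figure D1:**
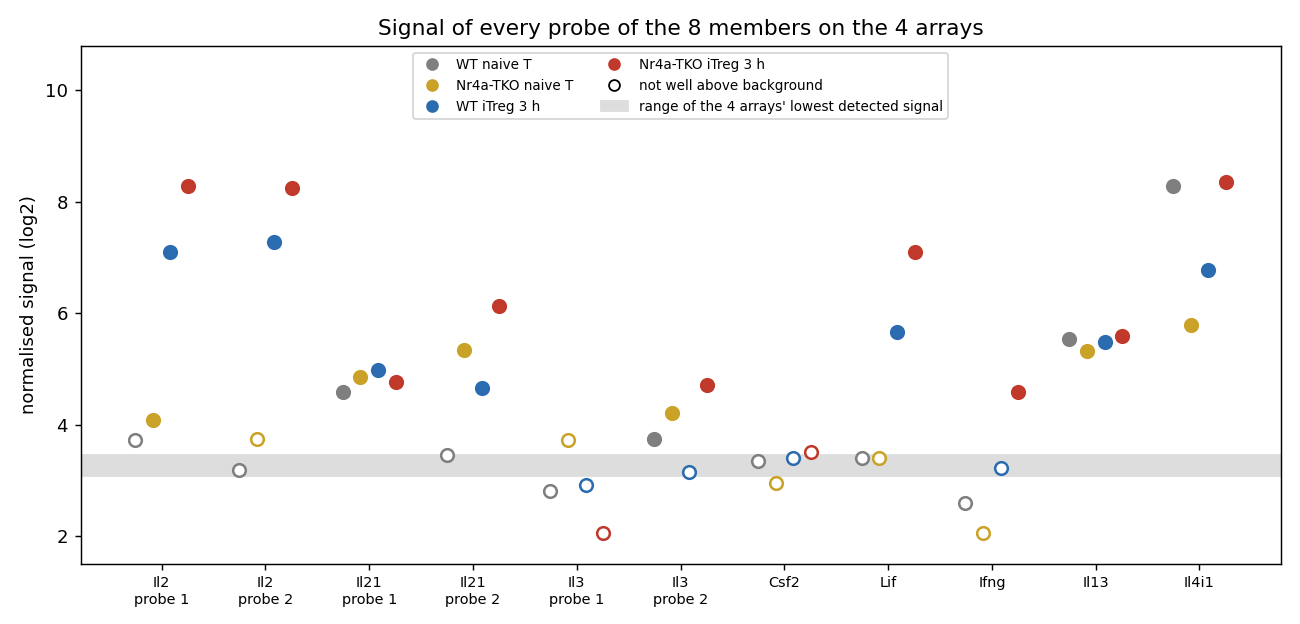
Normalised log2 signal (y axis) of each of the 11 probes (x axis) on the 4 arrays, 1 point per array. Filled points were well above background, open points were not, and the grey band spans the lowest signal well above background on the 4 arrays (3.07 to 3.45). Points should be compared within a probe; both Il2 probes and Lif separate the 3 h arrays from the naive arrays, and Il4i1 does not.

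The second question was whether the genotypes differed at 3 h. Of the 7 members measured, 6 (Il4i1, Il21, Lif, Il3, Il2 and Ifng) were more than 2-fold higher on the Nr4a-TKO array and 0 were more than 2-fold lower, where 1.77% and 1.9% of 19479 genes were. The values of Il3 and Ifng are bounds, at least 1.28 and at least 1.15 on the log2 scale: both genes were dim in WT at 3 h and entered this comparison only through the Nr4a-TKO array, so the count of 6 supports nothing about all 8. With both arrays required to be well above background, 4 members (Il2, Il21, Lif and Il4i1) were more than 2-fold higher. Under this filter 202 of 17418 genes were higher, and Il13 was the only other member measured. The log2 differences of the 4 ran from 1.19 to 1.58, and that of Il13 was 0.10. The median over the 7 members, with bounds taken at their value, was 1.28, and it was 0.00 over all genes. That median is the bound of Il3 itself, so it too describes the members that passed and supports nothing about all 8. By the mean of a gene's probes the median was 1.08. With a background offset of 50, which draws dim values together, it was 0.67, and 1 of the 7 members, Il4i1 at 1.24, was past 2-fold. Il2 (0.96) and Lif (0.90) came just short of it, and 63 of 19474 genes were more than 2-fold higher. Among genes measured on both 3 h arrays, 17418 in number, Il4i1 ranked 51 from the highest, Il21 ranked 67, Lif 71 and Il2 130. In naive T cells 5 members could be compared. Of these, 1 (Il21) was more than 2-fold higher and 1 (Il4i1) more than 2-fold lower on the Nr4a-TKO array, where 1.89% and 1.63% of 19168 genes were. The median was 0.35 beside -0.02 over all genes, and it is the value of Il2, a bound. Il2 and Il21 were dim in WT naive T and entered only through the Nr4a-TKO array.

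Il2 encodes the growth factor that activated T cells secrete and consume. The normalised log2 signal of probe 1 was 3.73 in WT naive T, 4.08 in Nr4a-TKO naive T, 7.09 in WT iTreg at 3 h and 8.28 in Nr4a-TKO iTreg at 3 h, and it was not well above background in WT naive T. That of probe 2 was 3.18, 3.74, 7.28 and 8.25 in the same order, and neither naive array was well above background. Both probes placed the arrays in the same order, with both 3 h arrays far above both naive ones. As processed intensity with the scanner software's error, probe 1 read 148 ± 14.9 in WT and 351 ± 35.1 in Nr4a-TKO at 3 h, and probe 2 read 158 ± 15.9 and 320 ± 32.1. Between naive T and 3 h, probe 1 was at least 10.3-fold higher in WT and 18.4-fold higher in Nr4a-TKO. Probe 2 was at least 14.3-fold and at least 22.8-fold higher. With the offset of 50 the log2 difference of probe 1 was 1.56 in WT and 2.44 in Nr4a-TKO, so the order of the arrays held and the folds did not. The Nr4a-TKO difference of probe 1, 4.21 on the log2 scale, ranked 6 among 17397 genes measured on both arrays. At 3 h, Il2 was 2.29-fold higher in Nr4a-TKO by probe 1 and 1.96-fold by probe 2, log2 differences of 1.19 and 0.97, so the second probe lies just under the 2-fold threshold. Both differences exceed the SD of a difference between spots over all probes, at most 0.185.

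**Figure D2:**
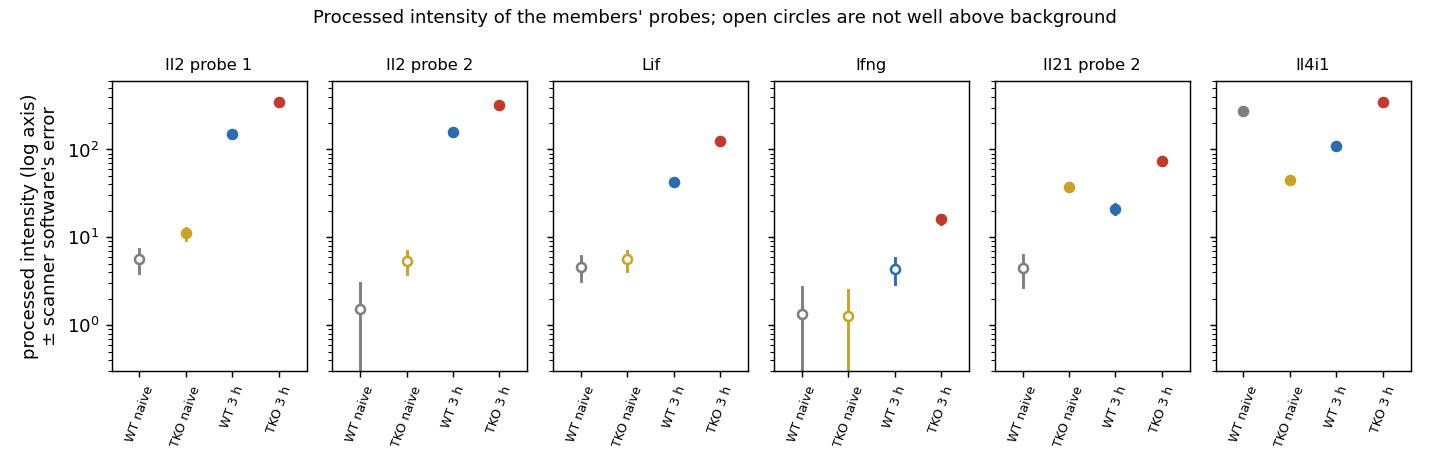
Processed intensity on a log axis (y axis) of 6 probes on the 4 arrays (x axis); bars are the error given by the scanner software for 1 spot and not a spread between mice, and bars that reach the lower edge are truncated there. Open points were not well above background. Il2 was highest on both 3 h arrays, Ifng was detected on the Nr4a-TKO 3 h array alone, and Il4i1 was lowest in Nr4a-TKO naive T.

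Il21 encodes a cytokine that acts on B cells and on the T cells that make it. Its probes did not show the same pattern. Probe 1, which the array design assigns to 1 of the 2 RefSeq transcripts of the gene, had log2 signals of 4.59 in WT naive T, 4.86 in Nr4a-TKO naive T, 4.98 in WT iTreg at 3 h and 4.77 in Nr4a-TKO iTreg at 3 h. All 4 were well above background, and the difference between genotypes at 3 h, -0.20, lies within the SD between spots at this signal. Probe 2, which the design assigns to both transcripts, read 3.45, 5.35, 4.66 and 6.13, and was not well above background in WT naive T. On this probe both Nr4a-TKO arrays exceeded both WT arrays. Nr4a-TKO was at least 3.73-fold higher in naive T and 2.77-fold higher at 3 h, with processed intensities of 21.3 ± 2.73 in WT and 74.1 ± 7.56 in Nr4a-TKO at 3 h. Between naive T and 3 h the probe was at least 2.31-fold higher in WT and 1.72-fold higher in Nr4a-TKO. The call for Il21 thus rests on probe 2, which is the brighter by its mean over the arrays; the mean of both probes gave a difference at 3 h of 0.63 on the log2 scale.

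Il3 and Csf2 encode IL-3 and GM-CSF, growth factors of myeloid cells that activated T cells also release. Il3 probe 1, which starts at base 379 of the transcript, read 2.81 in WT naive T, 3.73 in Nr4a-TKO naive T, 2.91 in WT iTreg at 3 h and 2.05 in Nr4a-TKO iTreg at 3 h. It was not well above background on any array. Il3 probe 2, which starts at base 789 of the transcript, read 3.75, 4.21, 3.14 and 4.71 and was well above background on all arrays but that of WT iTreg at 3 h. It was at least 2.42-fold higher in Nr4a-TKO than in WT at 3 h, and 1.41-fold higher at 3 h than in naive T within Nr4a-TKO. The probes therefore disagree, and with their mean the difference at 3 h was 0.46 on the log2 scale. The Csf2 probe read 3.34, 2.95, 3.40 and 3.51 and was not well above background on any array, so no fold is given.

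Lif encodes leukaemia inhibitory factor, a cytokine of the IL-6 family. Its log2 signal was 3.40 in WT naive T and 3.40 in Nr4a-TKO naive T, neither well above background, 5.66 in WT iTreg at 3 h and 7.10 in Nr4a-TKO iTreg at 3 h. The naive arrays gave the same value to 2 decimals, and both 3 h arrays stood above them. The processed intensity at 3 h was 42.5 ± 4.47 in WT and 125 ± 12.5 in Nr4a-TKO. Lif was at least 4.65-fold higher at 3 h in WT, at least 13.0-fold higher in Nr4a-TKO, and 2.71-fold higher in Nr4a-TKO than in WT at 3 h. Here both 3 h arrays were well above background, so the difference between genotypes, 1.44 on the log2 scale, is no bound.

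Ifng encodes interferon-γ, the signature cytokine of Th1 cells. Its log2 signal was 2.60 in WT naive T, 2.04 in Nr4a-TKO naive T, 3.23 in WT iTreg at 3 h and 4.58 in Nr4a-TKO iTreg at 3 h, and only the last was well above background. At that array the processed intensity was 16.1 ± 1.98, against 4.39 ± 1.41 in WT at 3 h. Ifng was at least 2.32-fold higher at 3 h than in naive T within Nr4a-TKO and at least 2.22-fold higher in Nr4a-TKO than in WT at 3 h. Of the NK and innate lymphoid markers, which include other cells that transcribe Ifng, 6 of 8 were well above background on each array, with a summed signal from 802 in WT to 1366 in Nr4a-TKO at 3 h. The excess lay in Rora, 7.73 in WT and 9.72 in Nr4a-TKO at 3 h on the log2 scale, a gene that T cells also transcribe. Ncr1, the NK cell receptor NKp46, was not well above background on any array.

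Il13 encodes a Th2 cytokine. Its log2 signal was 5.53 in WT naive T, 5.32 in Nr4a-TKO naive T, 5.49 in WT iTreg at 3 h and 5.59 in Nr4a-TKO iTreg at 3 h, all well above background. The 4 arrays lay within 0.27 of each other, and no difference between them reached 2-fold. Il4, 19.4 kb away, and Il5, 92.7 kb away, were not well above background on any array. Mast cells and basophils also transcribe Il13, Il3 and Il4. Of their 8 listed markers, 6 (Cpa3, Ms4a2, Fcer1a, Mcpt4, Mcpt8 and Gata2) were not well above background on any array, and the summed signal of the list was between 131 and 173. Of the others, Kit, the receptor of stem cell factor, was at 3.91 in WT and 5.42 in Nr4a-TKO at 3 h on the log2 scale and at least 2.05 higher at 3 h than in naive T within Nr4a-TKO, and Tpsb2 was at 6.05 and 6.36 at 3 h. The part of such cells in the values of Il3 and Il13 was not tested.

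Il4i1 ran a course of its own. The log2 signal was 8.28 in WT naive T, 5.79 in Nr4a-TKO naive T, 6.77 in WT iTreg at 3 h and 8.35 in Nr4a-TKO iTreg at 3 h, all well above background. The highest and lowest arrays were thus both Nr4a-TKO, and WT naive T stood beside Nr4a-TKO iTreg. Processed intensities were 274 ± 27.3, 45.4 ± 4.77, 111 ± 11.2 and 346 ± 34.7 in that order. Il4i1 was 2.85-fold lower at 3 h than in naive T in WT and 5.90-fold higher in Nr4a-TKO. Nr4a-TKO was 5.62-fold lower than WT in naive T, which ranked 14 from the lowest among 17245 genes measured on both naive arrays, and 2.99-fold higher at 3 h. Of the 8 myeloid and dendritic cell markers, 4 were higher and 4 were lower in Nr4a-TKO naive T than in WT naive T, with a median log2 difference of 0.03. The only marker more than 2-fold apart was Cd14, at 6.66 in WT naive T and 3.97 in Nr4a-TKO naive T, which was not well above background in WT at 3 h. Itgam, Csf1r, Itgax and Fcer1g differed between the naive arrays by 0.08, 0.12, 0.25 and 0.15. S100a8 and S100a9 were lower in Nr4a-TKO naive T, at -0.66 and -0.60, as was Lyz2 at -0.02, dim on that array. The summed signal of the 8, most of it from Itgam, was 37719 in WT naive T, 39768 in Nr4a-TKO naive T, 34924 in WT at 3 h and 34616 in Nr4a-TKO at 3 h. In WT naive T, Itgam read 15.06 and Csf1r 11.62 on the log2 scale, beside 13.05 for the CD4 T cell marker Cd3e and 3.81 for Lyz2. The sum therefore follows Itgam and says little about the dimmer markers. The part of other cells in the Il4i1 values was not tested.

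**Figure D3:**
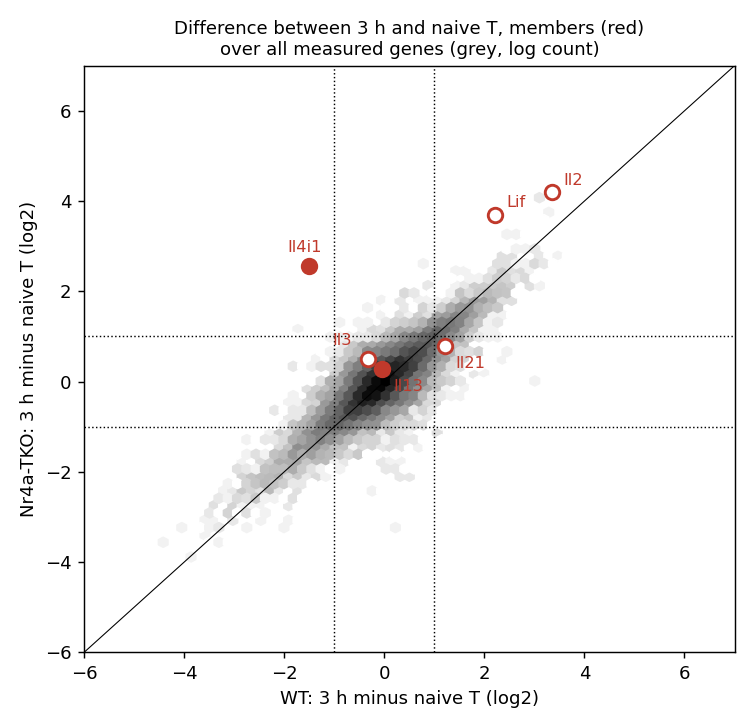
Log2 difference between 3 h and naive T in WT (x axis) against that in Nr4a-TKO (y axis) for the 6 members measured in both (red) and for all genes measured in both (grey hexagons, darker for more genes on a log scale). Open circles are bounds in at least 1 genotype, dotted lines mark 2-fold and the solid line marks equality; Il2 and Lif lie at the upper right, and Il4i1, at -1.51 and 2.56, lies apart.

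Other gene lists give the setting of these values. Of 20 other interleukins and cytokines on the arrays, 13 were measured at 3 h, and 0 were more than 2-fold apart between genotypes, with a median of 0.21. Closest was Ebi3, the subunit shared by IL-27 and IL-35, detected on the Nr4a-TKO 3 h array alone and at least 1.00 higher on the log2 scale. Tgfb1 was higher at 3 h, with log2 differences of 1.46 in WT cells and 1.61 in Nr4a-TKO cells, as was Mif (2.00 and 1.97), while Osm, a gp130 cytokine 31.1 kb from Lif, was lower (-1.44 and -1.05). Of 11 chemokines, 7 were measured at 3 h and 1, Ccl4, was more than 2-fold higher in Nr4a-TKO. Its log2 signal was 5.08 in WT naive T, 5.15 in Nr4a-TKO naive T, 6.45 in WT iTreg at 3 h and 7.67 in Nr4a-TKO iTreg at 3 h, an order like that of Lif. Ccl5 was lower at 3 h in both genotypes, with log2 differences of -2.27 and -2.09.

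Of 15 receptor chains for the members, 13 were measured at 3 h and 1 was more than 2-fold apart: Il6st, the gp130 chain through which LIF signals, at 10.89 in WT and 9.78 in Nr4a-TKO. Il2ra and Il2rg, chains of the IL-2 receptor, differed between genotypes at 3 h by 0.05 and -0.01, and Il2rb by 0.77. The chains of the IFN-γ receptor were lower at 3 h in both genotypes, with log2 differences of -1.92 in WT and -1.05 in Nr4a-TKO for Ifngr1 and of -1.61 and -1.17 for Ifngr2. Of 21 transcription factors that act at cytokine loci, 2 were more than 2-fold higher in Nr4a-TKO at 3 h, Nfatc2 by 1.02 and Maf by 1.29, and 1 was more than 2-fold lower, Foxp3, the Treg factor, at -1.35. Nfatc2 encodes NFAT1 and Maf a regulator of Il4 and Il21. Foxp3 was well above background on all arrays although the sort was for Foxp3- cells. Its difference was already present in naive T, at 7.41 in WT and 6.10 in Nr4a-TKO, or -1.31. Between naive T and 3 h it differed by 0.11 in WT and 0.07 in Nr4a-TKO. Foxp3 was not the only factor apart in naive T. There 1 of the 21 was more than 2-fold higher in Nr4a-TKO, Irf4 by 1.25, and 2 were more than 2-fold lower, Foxp3 and Eomes, with Eomes at -1.36. Of 12 regulators of cytokine mRNA decay, 0 were more than 2-fold apart between genotypes at 3 h, with a median of -0.21. Zc3h12d, an RNase of the Regnase family, came nearest, at 9.16 in WT and 8.23 in Nr4a-TKO. In WT, 5 of the 12 were more than 2-fold higher at 3 h, among them Zc3h12a (Regnase-1), by 1.48, and Zfp36l1, by 1.09, while in Nr4a-TKO 2 of them, Zfp36 and Zfp36l2, were more than 2-fold lower, at -1.12 and -1.04.

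Markers of other cells and states moved between the same 3 h arrays. All 7 B cell markers were higher in Nr4a-TKO, 2 of them more than 2-fold (H2-Aa by 1.34 and Cd79a by 1.14), and their summed signal was 876 in WT and 1414 in Nr4a-TKO at 3 h, beside 1253 and 1735 in naive T. Of 10 memory or effector markers, Cd44 was higher by 1.55 and Cxcr3 by 1.30, and the other 8 were within 2-fold. The summed signal of the CD4 T cell markers was 11716 in WT and 10062 in Nr4a-TKO. The part of these differences in the values of the members was not tested.

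**Figure D4:**
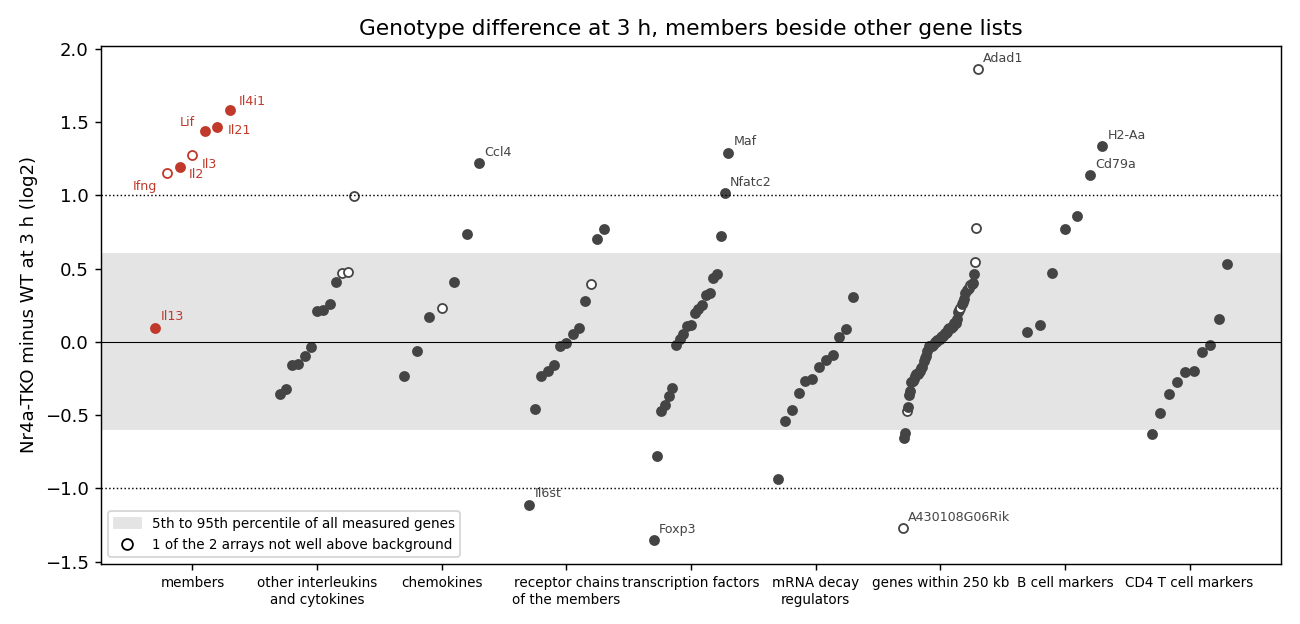
Log2 difference between Nr4a-TKO and WT at 3 h (y axis) for each gene measured, grouped by list (x axis, genes in rising order within a list). Members are red, open circles are genes dim on 1 of both arrays and dotted lines mark 2-fold. The grey band holds the 5th to 95th percentile of all genes measured (-0.59 to 0.60). Each gene is shown by its brightest probe, and by that probe all measured members but Il13 lie above the band. Il21 probe 1 (-0.20) and the mean of the Il3 probes (0.46), which are not shown, would lie within it.

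Genes beside the members on the chromosome were read as well. Within 250 kb of a member's probe lay probes of 74 other named genes, of which 62 were measured at 3 h. Of these, 1 was more than 2-fold higher in Nr4a-TKO and 1 more than 2-fold lower, with a median of 0.03, a count near the shares over all genes, 1.77% and 1.9%. The higher one was Adad1, whose probes lie 14.1 kb from those of Il2. Its log2 signal was 3.18 in WT naive T and 3.67 in WT iTreg at 3 h, neither well above background, and 4.16 and 5.53 in Nr4a-TKO. The lower one, A430108G06Rik, lies 67.2 kb from Il13 and was well above background on the array of WT iTreg at 3 h alone. Ifngas1, a noncoding RNA 65.6 kb from Ifng, was at 4.61 in WT naive T and 4.97 in Nr4a-TKO naive T and was not well above background at 3 h in either genotype.

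The genes nearest in pattern were found by the distance between their 4 log2 values after subtracting each gene's own mean, over 20431 other genes well above background on at least 1 array. Nearest to Il2 were Bcl2l1, which encodes the survival factor Bcl-xL, at a distance of 0.109, Cd83, a surface protein of activated lymphocytes, at 0.438, and the chemokine receptor gene Ccr8, at 0.571. Bcl2l1 read 6.40 in WT naive T, 6.89 in Nr4a-TKO naive T, 9.85 in WT iTreg at 3 h and 10.98 in Nr4a-TKO iTreg at 3 h. Nearest to Lif was Nr4a2 itself, at 0.272, whose log2 difference between 3 h and naive T was 2.58 in WT and 3.76 in Nr4a-TKO. The nearest gene to Il3 was Gadd45g (0.119), to Il13 Sec61b (0.014) and to Il21 Sh3gl3 (0.399), and the nearest to Il4i1, Gc, lay farthest, at 0.902. For Ifng the nearest, Spanxn4 (0.004), was dim on the same 3 arrays, where both genes stand at the lowest detected signal. With 4 points to a pattern, and with Il2, Il3 and Il21 dim on 1 array, Lif on 2 and Ifng on 3, nearness describes these arrays and no more.

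**Figure D5:**
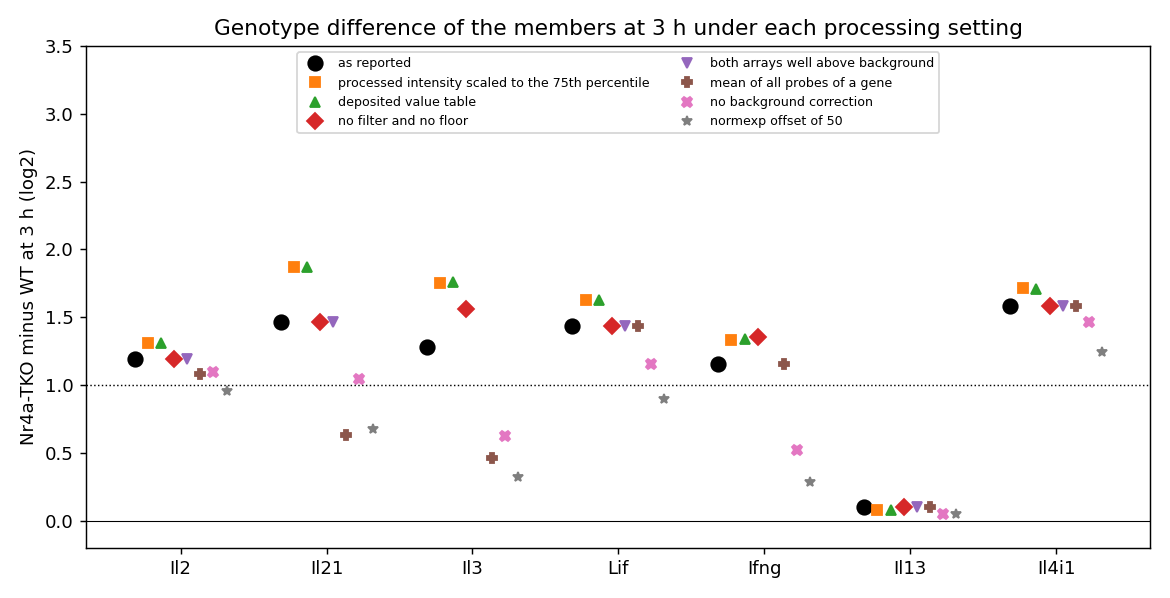
Log2 difference between Nr4a-TKO and WT at 3 h (y axis) of the 7 measured members (x axis) under the reported processing (black) and 7 others (coloured symbols, named in the key); the dotted line marks 2-fold. Il4i1 stayed above the line under all 8, between 1.24 and 1.71, while Il3 and Ifng lay well below it without background correction and with an offset of 50.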

How the data were processed

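For each array, the authors deposited the output of Agilent Feature Extraction 11.5.1.1, per the submitters' processing notes: the mean intensity of each spot and median local background intensity, a processed intensity (background-subtracted and detrended within the array) with its error, and flags. Labelled RNA was prepared from 100 ng of total RNA. They also deposited a table of log2 values; their methods name RMA, while the table was log2 of the processed intensity minus a constant for each array.

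Spot intensities were read with R 4.3.3, corrected for background by normexp (offset 0) and made alike in distribution between the arrays by quantile normalization with limma 3.58.1, then put on the log2 scale. Control spots and 115 to 160 flagged spots per array were left out. Python 3.11.15 (matplotlib 3.10.9, numpy 2.4.6, pandas 2.3.3) was used for the rest. A current symbol was held by 41700 of 56605 probes; 1518 were named by transcript and 520 by synonym from RefSeq, 1973 kept the file's name and 10894 had none. A difference needed 1 array well above background. The threshold was 2-fold, and no p-value can be given with 1 array per group. The counting was tested on simulated data. Some probe sequences and single genes of the lists are not reported here.

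The members and all gene lists were chosen with earlier results of these data known. Genes could be named if they were members, in a list and more than 2-fold apart or in a list of at most 10, within 250 kb of a member's probe, or nearest in pattern (3 for Il2, 1 for each other member detected). Not every gene that met one of these rules is named. Ebi3, Tgfb1, Zc3h12d, the Il2 receptor chains, Il4 and Il5 were added after their values were seen. Alternatives were processed intensity scaled to the 75th percentile, an offset of 50, no background correction, the deposited table, the mean of a gene's probes, no filter, both arrays well above background, and thresholds of 1.5-fold and 3-fold.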

Additional observations from a re-analysis of the deposited data

Results flagged for a closer look

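The members Il4i1, Il3 and Il13 had a difference between naive T and 3 h of opposite sign in WT and Nr4a-TKO, with 1 array for each, and none of these differences between the genotypes was tested. For Il4i1 the difference was -1.51 in WT and 2.56 in Nr4a-TKO on the log2 scale, which puts them 4.07 apart. For Il3 it was 0.49 in Nr4a-TKO and, with the WT 3 h array not well above background, a bound of -0.32 or lower in WT, which puts them at least 0.81 apart; by the mean of both probes the values were -0.17 in WT and -0.08 in Nr4a-TKO, which have the same sign. For Il13 it was -0.04 and 0.27, which puts them 0.31 apart. The SD of a single difference between spots was 0.164 to 0.209 at this signal, and that of a gap between differences is larger. Without background correction the Il13 values were 0.02 in WT and 0.19 in Nr4a-TKO, which have the same sign.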

How the results depend on the processing

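No paired analysis was possible because each group had 1 array. The counts of members past 2-fold stayed within 1.5 times their values under the processed intensity scaled to the 75th percentile, the deposited table, the mean of a gene's probes, no filter and the threshold of 1.5-fold. With an offset of 50, 1 member (Il2) was more than 2-fold higher at 3 h in WT, where 848 of 19264 genes were. Between genotypes, 1 (Il4i1) was more than 2-fold higher in Nr4a-TKO at 3 h. In naive T 1 was more than 2-fold apart, where 88 genes were higher and 74 lower of 19173. At that offset the log2 differences between genotypes at 3 h were 0.67 for Il21, 0.32 for Il3 and 0.28 for Ifng. With the mean of a gene's probes, 4 members were more than 2-fold higher in Nr4a-TKO at 3 h, where 247 of 19554 genes were. In WT 2 were higher at 3 h, where 1476 of 19327 genes were. Without background correction, 2 members were higher at 3 h in WT and 3 in Nr4a-TKO, where 1140 of 19270 and 1076 of 19662 genes were. Between genotypes 4 were higher in Nr4a-TKO at 3 h, where 142 of 19484 genes were. In naive T 1 was apart, where 154 genes were higher and 134 lower of 19180. With both arrays required to be well above background, 0 members were higher at 3 h in WT, where 1389 of 17006 genes were. In Nr4a-TKO cells 2 were higher at 3 h, where 1359 of 17397 genes were. In naive T 1 was apart, where 181 genes were higher and 154 lower of 17245. That filter removes every member dim on the naive array of the comparison. With a threshold of 3-fold, 0 members were higher in Nr4a-TKO at 3 h, where 107 of 19479 genes were. No difference past 2-fold turned its sign under any alternative. Over all genes at 3 h, those higher and lower in Nr4a-TKO numbered 345 and 370 as reported, 63 and 88 with an offset of 50, 142 and 152 without background correction and 739 and 697 without a filter. The median of all genes in WT between 3 h and naive T was -0.12 with the processed intensity scaled to the 75th percentile. By their brightest probe, Csf2 was well above background on 0 arrays, Ifng on 1, Lif on 2 and Il2, Il3 and Il21 on 3, which limits their values.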
